A study of Homo sapiens with 11 samples.

Results

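The genes described here encode parts of the phagocyte NADPH oxidase. They are the 5 genes CYBB, CYBA, NCF1, NCF4 and RAC2, taken by gene symbol from the 38557 genes of the joined count table. RNA was sequenced from MOLM-13 cells, a line grown from a human acute myeloid leukemia in which KMT2A is rearranged. After 72 h, 4 libraries (DMSO) came from cells in the solvent, 4 libraries (MI-503) from cells given MI-503 at 1 µM, and 3 libraries (MI-503 + PR-957, the combination) from cells given the same MI-503 dose plus PR-957 at 100 nM. MI-503 blocks Menin, a protein that holds KMT2A fusion proteins on chromatin, and PR-957 blocks PSMB8, a catalytic subunit of the immunoproteasome. The combination libraries carry the replicate numbers 1, 2 and 4. No library with PR-957 alone was among the samples, so the effect of PR-957 was measured only on top of MI-503. All groups share 1 cell line.

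The oxidase moves electrons from NADPH in the cytosol across a membrane to oxygen, which yields superoxide. It is known for the respiratory burst with which neutrophils and macrophages attack microbes, and inherited loss of a subunit causes chronic granulomatous disease. CYBB (also named NOX2) is the catalytic subunit and CYBA its membrane partner, and together they form flavocytochrome b558. NCF1 and NCF4 encode cytosolic subunits, of which NCF1 organizes assembly and NCF4 binds a membrane phosphoinositide. RAC2 is the GTPase of blood cells that completes the active complex.

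On the hg38 build, CYBB lies on chromosome X (37780059 to 37813461, plus strand, 13 exons) and CYBA on chromosome 16 (88643289 to 88651079, minus strand). NCF1 lies on chromosome 7 (74773962 to 74789376, plus strand, 11 exons). NCF4 (36860988 to 36878017, plus strand) and RAC2 (37225270 to 37244269, minus strand) both lie on chromosome 22. Counts were taken over all annotated exons of a gene.

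NCF1 has 2 near-identical copies on the same chromosome, NCF1B and NCF1C, which are annotated as pseudogenes. The start of exon 2 is shown because it holds the best known difference between them, the number of GT repeats, given here in capitals. The sequences were read from hg38 in the direction of transcription, at chr7:74777267-74777296 on the plus strand for NCF1, at chr7:73223878-73223905 on the plus strand for NCF1B and at chr7:75168683-75168710 on the minus strand for NCF1C.
NCF1: GTGTacatgttcctggtgaaatggcaggac
NCF1B: GTacatgttcctggtgaaatggcaggac
NCF1C: GTacatgttcctggtgaaatggcaggac
NCF1 has 2 GT repeats at this place and each copy has 1, so that both copies are 2 bases shorter. Fragments that mapped to several places had been left out of the counts. Of 920 windows of 50 bases within NCF1 exons, 796 (86.5%) occurred again elsewhere in hg38 and 124 did not. The NCF1 counts therefore rest on the fragments that could be told apart, and how reads were split between NCF1 and its copies is uncertain. The share of recurring windows was 0 for CYBB and RAC2 and 6.48% for CYBA. It was 79.1% for NCF4, where every recurrence lay on alternate contigs of the assembly.

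The promoters are shown because the oxidase genes of phagocytes are textbook targets of PU.1 (gene SPI1), an ETS factor that binds purine-rich words with the core GGAA. The word GAGGAA was searched on both strands in the 250 bases before each start site of the RefSeq promoter table (build GRCh38.p14), and a match is in capitals. CYBB (chrX:37779809-37780058, plus strand), NCF1 (chr7:74773761-74774010, plus strand) and CYBA (chr16:88651054-88651303, minus strand) had an entry, and NCF4 and RAC2 were not matched.
CYBB: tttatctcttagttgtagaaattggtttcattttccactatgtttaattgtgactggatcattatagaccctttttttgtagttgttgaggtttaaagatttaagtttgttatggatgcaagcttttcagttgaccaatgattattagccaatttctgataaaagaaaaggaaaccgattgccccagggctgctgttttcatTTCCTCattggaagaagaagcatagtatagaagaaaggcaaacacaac
NCF1: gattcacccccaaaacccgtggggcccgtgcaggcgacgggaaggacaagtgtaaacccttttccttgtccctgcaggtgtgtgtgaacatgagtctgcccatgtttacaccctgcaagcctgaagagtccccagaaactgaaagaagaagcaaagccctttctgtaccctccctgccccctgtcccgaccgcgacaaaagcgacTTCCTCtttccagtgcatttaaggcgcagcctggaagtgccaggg
CYBA: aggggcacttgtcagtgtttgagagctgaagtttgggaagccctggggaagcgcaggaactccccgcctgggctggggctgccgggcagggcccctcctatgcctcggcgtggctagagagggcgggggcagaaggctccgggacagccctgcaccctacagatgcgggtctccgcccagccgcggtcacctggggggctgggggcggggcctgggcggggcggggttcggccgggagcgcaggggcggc
CYBB and NCF1 each held 1 match, in both as the reverse complement TTCCTC, starting 48 and 45 bases before the start site of that table. The NCF1 and CYBA windows overlap the gene coordinates given above, because the annotations differ in the start site. The NCF1 match lies within those coordinates. CYBA held none. The word was present in 8277 of 35116 promoters of this length (23.6%), and a match describes the letters of the window only.

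Depth ran from 18.89 to 41.15 M counted fragments per library. Between pairs of libraries of 1 group, the chi-square of counts per degree of freedom was 1.71 to 5.79, apart from combination replicate 1, which stood at 19.7 and 34.1 from replicates 2 and 4. Fits of single genes, ratios and counts of calls were therefore repeated without it, while group levels, list counts and the search for similar genes include it. All 12 myeloid marker genes examined reached 1 CPM (fragments counted, scaled to library size), and their summed level was 1645 to 1725 CPM in DMSO, 2202 to 2374 in MI-503 and 2374 to 4817 in the combination. LYZ alone, which encodes lysozyme, ranged from 599 to 2513 CPM in the combination, and the 12 genes did not move as 1, with 10 called higher and 1 lower in MI-503, 7 higher and 1 lower in the combination over DMSO, and 6 higher and 4 lower in the combination over MI-503. Over all tested genes, 51.4%, 64.5% and 47.4% were called in these comparisons, with 22.0%, 31.7% and 23.6% higher and 29.3%, 32.8% and 23.8% lower. Of the markers of other cells, 5 of 6 T and NK cell genes, 2 of 4 B cell genes, all 4 erythroid genes and 4 of 5 epithelial and stromal genes stayed below 1 CPM in every library, with CD2 and MS4A1 at 0 throughout. NKG7 and PECAM1 made up most of the T and NK cell and stromal sums, which ran from 12.6 to 17.6 CPM and from 46.6 to 56.3 CPM in DMSO, from 36.0 to 37.7 and from 106.7 to 112.5 in MI-503, and from 37.1 to 48.5 and from 126.1 to 184.0 in the combination. The part of these shifts in the oxidase results was not tested. Fewer cells expressing a gene and less RNA per cell cannot be told apart in these bulk samples.

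The 5 genes differed widely in level when compared per length (RPKM, fragments scaled to library size and to kilobases of exon). In DMSO, RAC2 stood at 253 ± 13.8 RPKM (SD, n = 4), CYBA at 226 ± 10.7, NCF1 at 15.5 ± 2.01, NCF4 at 3.42 ± 0.531 and CYBB at 0.0567 ± 0.0231. The ranges of neighbours in this order did not overlap in DMSO or in MI-503. In the combination, RAC2 (136 to 159 RPKM) and CYBA (127 to 204 RPKM) did overlap, and CYBA was the higher of both in replicates 2 and 4. The sources used here do not say whether the alignment index held alternate contigs. If it did, fragments from the recurring windows of NCF4 would have been left out of its count, so its level, and its ratio to NCF1, are uncertain. The level per length also depends on the alternate contig, since the deposited length of 3553 bases counts its exons on 2 contigs. With the 2223 bases on chromosome 22 alone, NCF4 came to 5.46 RPKM in DMSO, 7.10 in MI-503 and 7.12 in the combination.

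**Figure D1:**
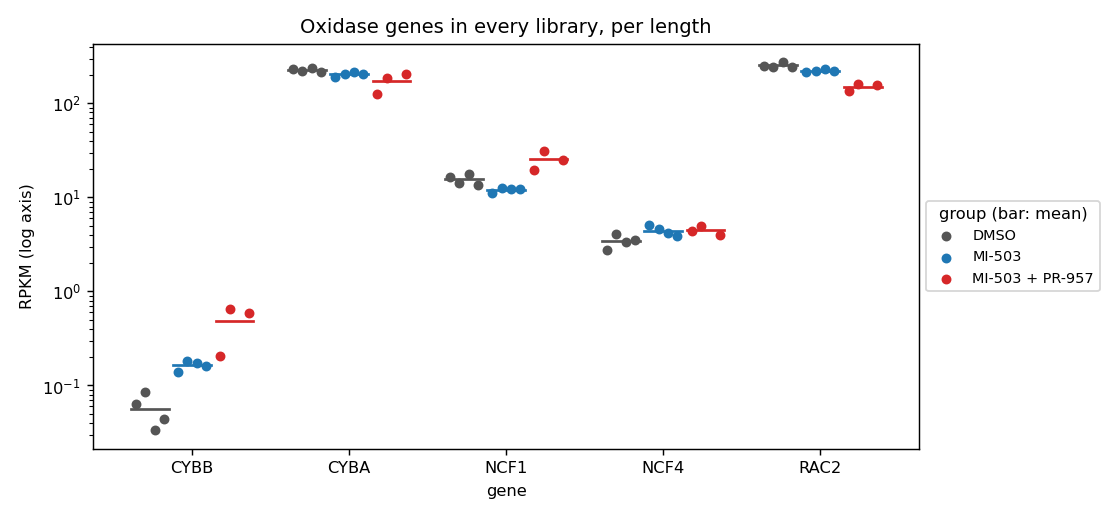
Level per length (RPKM, log axis) of the 5 oxidase genes in every library, with 1 point per library and a bar at each group mean. CYBB lies lowest in all 3 groups, and CYBA and RAC2 lie highest.

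Against DMSO, MI-503 raised the catalytic subunit CYBB and the cytosolic subunit NCF4, while NCF1 and RAC2 fell and CYBA was not called. Thus 2 of 5 genes were called higher and 2 lower (edgeR's quasi-likelihood test, Benjamini-Hochberg adjusted p under 0.05 over 14683 tested genes), against 51.4% of all tested genes called, 22.0% higher and 29.3% lower. With upper-quartile scaling, 54.2% of the called genes were higher in this comparison, against 42.9% with the TMM factors used here. The combination raised CYBB, NCF1 and NCF4 over DMSO and lowered CYBA and RAC2, so that 3 genes were called higher and 2 lower, where 64.5% of all tested genes were called, 31.7% higher and 32.8% lower. Against MI-503, the combination raised CYBB and NCF1 and lowered RAC2, with CYBA and NCF4 not called, where 47.4% of all tested genes were called, 23.6% higher and 23.8% lower. Group ranges were separate for 4 of 5 genes in MI-503 against DMSO (50.3% of all tested genes), 4 of 5 in the combination against DMSO (60.5%) and 3 of 5 in the combination against MI-503 (47.6%). The median log2 fold change of the 5 genes was -0.15, 0.38 and -0.00344 in these comparisons, and that of all tested genes was -0.0284, 0.0128 and 0.00406. Both comparisons with DMSO share the 4 DMSO libraries. In both, CYBB is among the genes called higher and the separate ranges. It passed the filter on low counts only through the treated libraries, so the counts against DMSO are no evidence about the set. The 5 genes moved in both directions in each comparison, and the values of each gene follow by its role.

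**Figure D2:**
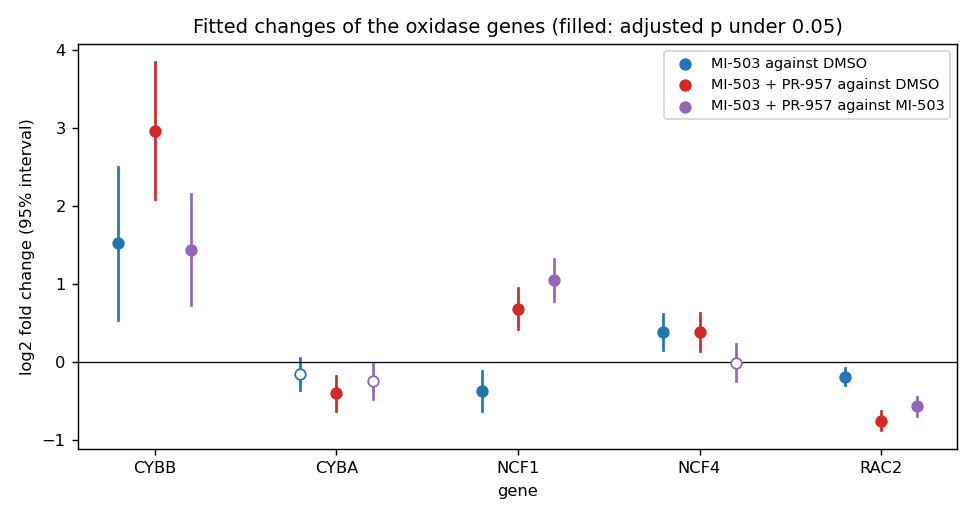
Fitted log2 fold change of the 5 oxidase genes with 95% intervals in the 3 comparisons, where filled points have an adjusted p under 0.05. CYBB has the widest intervals, RAC2 lies below 0 in all 3 comparisons, and NCF1 lies below 0 in MI-503 against DMSO and above 0 in the other comparisons.

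CYBB, the catalytic subunit, was the lowest of the 5 genes and the one with the largest fitted changes. Its fragments numbered 8, 8, 3 and 4 in DMSO replicates 1 to 4, 13, 27, 18 and 17 in MI-503 replicates 1 to 4, and 37, 56 and 67 in combination replicates 1, 2 and 4. Scaled to library size, these were 0.270, 0.368, 0.142 and 0.190 CPM in DMSO, 0.602, 0.785, 0.743 and 0.696 CPM in MI-503, and 0.874, 2.81 and 2.49 CPM in the combination. Every MI-503 library lay above every DMSO library, and every combination library lay above every MI-503 library, with combination replicate 1 only slightly above. CYBB rose 2.87-fold in MI-503 (log2 1.52, SE 0.47, edgeR adjusted p = 0.0113), 7.78-fold in the combination over DMSO (log2 2.96, SE 0.42, edgeR adjusted p = 7.65e-06) and 2.71-fold in the combination over MI-503 (log2 1.44, SE 0.34, edgeR adjusted p = 0.00203). Combination replicate 1 was at 0.330 times the mean of replicates 2 and 4 for CYBB, and without it the log2 changes of the combination were 3.42 over DMSO and 1.85 over MI-503. Without combination replicate 2 they were 2.69 and 1.13, the lowest values over single libraries left out. CYBB passed the filter on low counts only through the treated libraries, since none of the DMSO libraries reached the limit of 0.413 CPM. Its rises stand on few fragments in DMSO, 23 in all.

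CYBA, the membrane partner of CYBB, was abundant and had smaller changes. It stood at 593, 564, 613 and 553 CPM in DMSO, at 495, 523, 548 and 529 CPM in MI-503, and at 325, 479 and 523 CPM in combination replicates 1, 2 and 4. All MI-503 libraries lay below all DMSO libraries by a small margin, and combination replicate 1 was at 0.649 times the mean of the other combination libraries. The log2 change in MI-503 was -0.15 (95% interval -0.36 to 0.06, edgeR adjusted p = 0.215), which became a call without combination replicate 1 (log2 -0.10, edgeR adjusted p = 0.0358). Relative to DMSO, CYBA was lower in the combination, with a log2 change of -0.39 (SE 0.11, edgeR adjusted p = 0.00364), which was -0.19 without combination replicate 1 (edgeR adjusted p = 0.00203). The combination and MI-503 differed by a log2 of -0.25 (95% interval -0.47 to -0.02, edgeR adjusted p = 0.0665). Without combination replicate 1 this difference was -0.0896, and it was called without replicate 2 (-0.34, edgeR adjusted p = 0.0371) and without replicate 4 (-0.42, edgeR adjusted p = 0.00224).

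The level of CYBB relative to CYBA thus shifted within each library. Per length, CYBB made up 0.000252 ± 0.000107 of the CYBA level with DMSO (SD, n = 4), 0.000808 ± 0.0000707 with MI-503 (n = 4) and 0.00266 ± 0.000968 with the combination (n = 3), with no overlap between groups. The log2 ratio was 1.78 higher in MI-503 than in DMSO, 3.43 higher in the combination than in DMSO and 1.65 higher in the combination than in MI-503 (two-sided exact permutation test, p = 0.0286 each, the smallest this design allows, adjusted p = 0.0367 over 9 tests of 3 ratios). The ratio rests on the same 3 to 8 CYBB fragments per DMSO library, below the filter limit, and is no separate evidence of the CYBB rise. CYBA was the more abundant transcript by 3 orders of magnitude in DMSO, between 2557 and 7186 times the CYBB level.

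**Figure D3:**
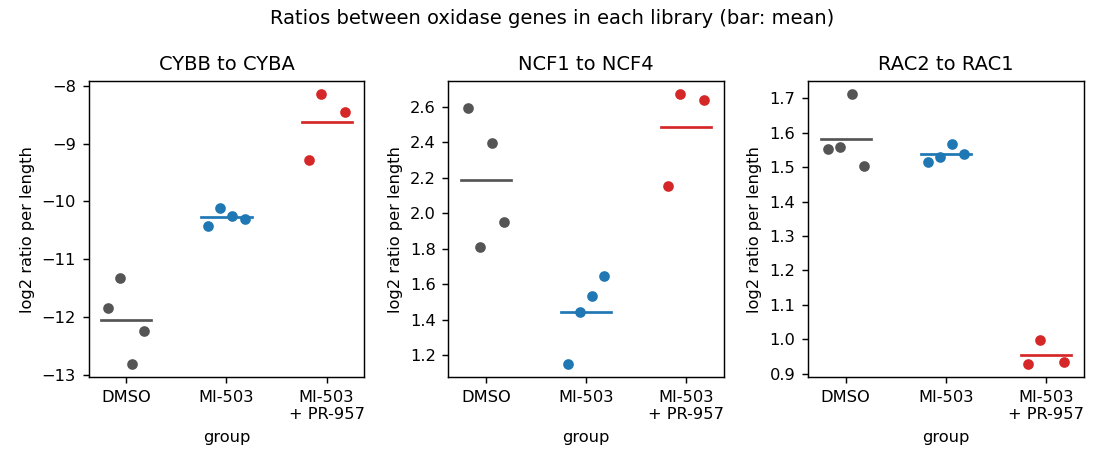
Log2 ratio per length of CYBB to CYBA, NCF1 to NCF4 and RAC2 to RAC1 in every library by group, with a bar at each group mean. The CYBB to CYBA ratio differs between all 3 groups without overlap, NCF1 to NCF4 is lowest in MI-503, and RAC2 to RAC1 is lowest in the combination.

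NCF1, the organizer of the cytosolic subunits, moved one way with MI-503 and the other way once PR-957 was added. It stood at 24.3, 20.8, 25.9 and 19.7 CPM in DMSO, at 16.3, 18.4, 17.8 and 17.8 CPM in MI-503, and at 28.4, 46.0 and 36.5 CPM in combination replicates 1, 2 and 4. MI-503 libraries lay below all DMSO libraries and combination libraries lay above both groups. NCF1 fell by 22.4% in MI-503 (log2 -0.37, SE 0.12, edgeR adjusted p = 0.0183). This call was lost without DMSO replicate 1 (log2 -0.33, edgeR adjusted p = 0.0614), without DMSO replicate 3 (-0.30, edgeR adjusted p = 0.0704), without MI-503 replicate 1 (-0.33, edgeR adjusted p = 0.0549) and when NCF1 was summed with its copies (-0.22, edgeR adjusted p = 0.0845). In the combination NCF1 rose 1.61-fold over DMSO (log2 0.69, SE 0.12, edgeR adjusted p = 1.07e-04) and 2.08-fold over MI-503 (log2 1.05, SE 0.12, edgeR adjusted p = 3.39e-06). Over single libraries left out these rises ran from 0.51 to 0.87 and from 0.84 to 1.19 on the log2 scale, the highest being those without combination replicate 1, and for the summed copies they were 0.75 and 0.97.

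The copies of NCF1 showed the rise in the combination as well. NCF1C stood at 14.9 ± 1.95 CPM in DMSO, 13.4 ± 1.32 in MI-503 and 26.5 ± 5.75 in the combination, and NCF1B at 6.45 ± 0.768, 6.85 ± 0.0530 and 11.2 ± 1.40 CPM (SD, n = 4, 4 and 3). In the combination NCF1C rose by a log2 of 0.81 over DMSO and 0.97 over MI-503, and NCF1B by 0.79 and 0.70 (edgeR adjusted p at most 3.06e-05 for each). In MI-503 against DMSO neither was called, with log2 changes of -0.16 for NCF1C (95% interval -0.42 to 0.10) and 0.09 for NCF1B (95% interval -0.13 to 0.30). Because the 3 genes share most of their exon sequence, their values are not independent of each other.

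**Figure D4:**
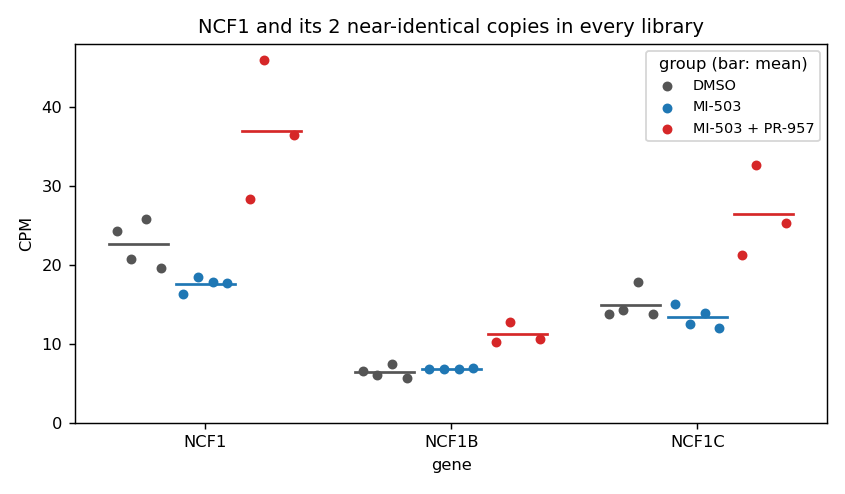
CPM of NCF1, NCF1B and NCF1C in every library, with a bar at each group mean. All 3 genes are highest in the 3 combination libraries, and the MI-503 libraries lie below the DMSO libraries without overlap for NCF1 alone.

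NCF4, the phosphoinositide-binding subunit, rose modestly over DMSO in both treatments. It stood at 9.82, 14.4, 11.95 and 12.4 CPM in DMSO, at 17.9, 16.5, 14.99 and 13.8 CPM in MI-503, and at 15.6, 17.6 and 14.3 CPM in combination replicates 1, 2 and 4. DMSO replicate 2 lay within the MI-503 range and just within that of the combination, so the groups overlapped. NCF4 rose 1.31-fold in MI-503 (log2 0.39, SE 0.11, edgeR adjusted p = 0.00659) and 1.30-fold in the combination (log2 0.38, SE 0.12, edgeR adjusted p = 0.00808), both over DMSO. The combination and MI-503 differed by a log2 of -0.00344 (95% interval -0.24 to 0.23, edgeR adjusted p = 0.986). Of the NCF4 exon bases, 1.63% are shared with the antisense gene NCF4-AS1, and the counting did not use strand.

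The balance of both cytosolic subunits was compared within each library. Per length, the ratio of NCF1 to NCF4 was 4.67 ± 1.19 with DMSO (SD, n = 4), 2.74 ± 0.384 across the MI-503 libraries (n = 4), and it reached 5.68 ± 1.07 in the combination (n = 3). On the log2 scale it was -0.74 in MI-503 relative to DMSO and 1.04 in the combination relative to MI-503 (exact permutation test, p = 0.0286 each, adjusted p = 0.0367). The combination and DMSO overlapped in this ratio (log2 difference 0.30, SE 0.25, exact permutation p = 0.314, adjusted p = 0.354). The ratio uses the deposited NCF4 length of 3553 bases. With the 2223 bases on chromosome 22 alone its level would be lower in every group, while the log2 differences would stay the same. The counts of both genes are uncertain as described above. The ratio restates the values of the single genes and is no separate evidence.

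RAC2, the blood cell GTPase, fell in both treatments and further with PR-957. It stood at 415, 404, 449.6 and 399 CPM in DMSO, at 357, 365, 382 and 362 CPM in MI-503, and at 224, 263 and 257 CPM in combination replicates 1, 2 and 4. The 3 groups did not overlap. RAC2 fell by 12.1% in MI-503 (log2 -0.19, SE 0.05, edgeR adjusted p = 0.0063), a call that was lost under a stricter filter on low counts (log2 -0.12, edgeR adjusted p = 0.0579). In the combination it fell by 40.5% from DMSO (log2 -0.75, SE 0.06, edgeR adjusted p = 5.26e-09) and by 32.3% from MI-503 (log2 -0.56, SE 0.06, edgeR adjusted p = 6.28e-07). Without combination replicate 1 these falls were -0.66 and -0.52 on the log2 scale.

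RAC1, the widely expressed GTPase that can take the same place, was compared with RAC2 within each library. Its mean was 199.9 ± 3.43 CPM with DMSO (SD, n = 4), 181 ± 3.02 with MI-503 (n = 4) and 184 ± 12.9 with the combination (n = 3). Per length, RAC2 was 3.00 ± 0.192 times RAC1 in DMSO, 2.90 ± 0.0442 times in MI-503 and 1.94 ± 0.0518 times in the combination. The log2 ratio of RAC2 to RAC1 was -0.63 in the combination relative to DMSO and -0.58 relative to MI-503 (exact permutation test, p = 0.0286 each, adjusted p = 0.0367), with no overlap. In MI-503 relative to DMSO it was -0.04 (SE 0.05, exact permutation p = 0.486).

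Of 6 other assembly genes, which include RAC1 and the NCF1 copies, 1 was called higher and 1 lower in MI-503, 3 higher and 3 lower in the combination over DMSO, and 2 higher and 1 lower in the combination over MI-503. Over all tested genes, 51.4%, 64.5% and 47.4% were called in these comparisons. Of all tested genes, 22.0%, 31.7% and 23.6% were higher and 29.3%, 32.8% and 23.8% lower. CYBC1, a chaperone needed for CYBB and CYBA protein, rose by a log2 of 0.22 in MI-503 (SE 0.05, edgeR adjusted p = 0.00159) and 0.19 in the combination (SE 0.06, edgeR adjusted p = 0.00664), both over DMSO. RAP1A, a GTPase that copurifies with flavocytochrome b558, was lower in the combination than in MI-503 by a log2 of -0.22 (SE 0.05, edgeR adjusted p = 0.0019). The combination differed from DMSO by a log2 of -0.12 for RAC1 (edgeR adjusted p = 0.0296), -0.13 for RAP1A (0.0344) and -0.25 for RAC3, a further Rac GTPase (0.0157). Without combination replicate 1 the adjusted p of RAC1 was 0.341 and that of RAP1A 0.0733, and without combination replicate 4 that of RAC3 was 0.0593. RAC1 also lost this call without DMSO replicate 1 or 4, RAC3 without DMSO replicate 1, and RAP1A without DMSO replicate 1, 2 or 4 or combination replicate 2 or 4. In the combination over DMSO, RAC1, RAC3 and RAP1A also lost their calls with upper-quartile scaling (edgeR adjusted p = 0.277, 0.0753 and 0.311). The same held under the stricter filter and with no filter. RAC1 further lost it with RLE scaling and with 2 groups only, and RAP1A with DESeq2 and with 2 groups only. In MI-503 against DMSO, RAC1 differed by -0.14 (edgeR adjusted p = 0.0103, and 0.0613 without combination replicate 2). That call was lost with upper-quartile scaling (edgeR adjusted p = 0.0995) and under the stricter filter (0.118) too.

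Related oxidases were scarcely expressed, and 3 of 10 NOX and DUOX genes passed the filter. Of these, 1 was called higher and 1 lower in MI-503, 2 higher and 1 lower in the combination over DMSO, and 1 higher in the combination over MI-503. The shares of all tested genes called were 51.4%, 64.5% and 47.4% in these comparisons. NOXA1, which activates NOX1 in other tissues, stood at 2.84 ± 0.265 CPM with DMSO (SD, n = 4), 7.08 ± 0.991 with MI-503 (n = 4) and 11.4 ± 1.96 with the combination (n = 3). It rose by a log2 of 1.33, 1.99 and 0.66 in the 3 comparisons (edgeR adjusted p at most 3.66e-04). The other calls were those of DUOX1 and NOXO1, whose means were below 1.3 CPM in every group, and no other of the 10 genes was tested. NOXO1, called lower, was at 0.474 to 0.979 CPM in DMSO, at most 0.378 in MI-503 and 0.351 to 0.425 in the combination, so that it met the filter limit of 0.413 CPM mainly through DMSO, where it was high. Its call in the combination over DMSO was lost with DESeq2 (adjusted p = 0.148), without DMSO replicate 1 (edgeR adjusted p = 0.222) and without combination replicate 1, 2 or 4 (0.0588, 0.0751 and 0.0738), and its call in MI-503 was lost without DMSO replicate 1 (0.0642). DUOX1, called higher in the combination over DMSO, lost its call with DESeq2 (adjusted p = 0.0619) and without combination replicate 2 (edgeR adjusted p = 0.0708).

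Genes whose products activate the oxidase (kinases, phosphoinositide 3-kinases, Rac exchange factors and the voltage-gated proton channel) were called in both directions, as were those of the lists that follow. Over all tested genes, the shares called were 51.4%, 64.5% and 47.4% in the 3 comparisons, as given above. Higher were 22.0%, 31.7% and 23.6% of all tested genes, and lower were 29.3%, 32.8% and 23.8%. These shares also stand beside the counts of the lists that follow. Differences between comparisons in these counts were not tested. Of 19 genes, 12 were called higher and 3 lower in MI-503, 11 higher and 5 lower in the combination over DMSO, and 3 higher and 9 lower in the combination over MI-503. Their median log2 fold changes were 0.27, 0.19 and -0.16. PREX1, a Rac exchange factor, rose by a log2 of 1.11 in MI-503 and 1.04 in the combination over DMSO, and PRKCB, a protein kinase C that phosphorylates NCF1, by 0.68 and 0.56 (edgeR adjusted p at most 1.08e-07). HVCN1, the proton channel that balances the charge moved by the oxidase, stood at 20.8 ± 0.973 CPM in DMSO, 30.6 ± 0.978 in MI-503 and 19.1 ± 1.36 in the combination (SD, n = 4, 4 and 3), higher in MI-503 than in DMSO (log2 0.56) and lower in the combination than in MI-503 (log2 -0.68).

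Among 10 factors described at promoters of oxidase genes, 5 were called higher and 3 lower in MI-503, 5 higher and 4 lower in the combination over DMSO, and 3 higher and 1 lower in the combination over MI-503. Their median log2 fold changes were 0.09, 0.29 and 0.06. CEBPB, a myeloid activator, rose by a log2 of 0.35, 0.92 and 0.57 in the 3 comparisons (edgeR adjusted p at most 0.00205). CUX1, described as a repressor of CYBB, rose by 0.47 in MI-503 and 0.47 in the combination, while the ETS factor ELF1 fell by 0.40 and 0.39 on the log2 scale, all over DMSO. HOXA10, another factor described at the CYBB promoter, fell by 0.57 in the combination over DMSO and by 0.51 over MI-503. SPI1, whose word was searched above, had means of 224 CPM in DMSO, 263 in MI-503 and 297 in the combination. It rose by a log2 of 0.23, 0.41 and 0.17 in the 3 comparisons (edgeR adjusted p = 0.00555, 5.29e-05 and 0.0438). The combination libraries ran from 250 to 332 CPM and overlapped those of MI-503.

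Enzymes that handle superoxide and peroxide moved in both directions. Of 12 genes, 4 were called higher and 5 lower in MI-503, 5 higher and 4 lower in the combination over DMSO, and 4 higher and 3 lower in the combination over MI-503, with median log2 fold changes of -0.0548, 0.11 and 0.00542. CAT, the catalase that breaks down hydrogen peroxide, rose by a log2 of 0.541, 1.008 and 0.467, and the mitochondrial peroxidase PRDX3 fell by 0.38, 0.70 and 0.33. MPO, which uses hydrogen peroxide in granules, rose by 0.92 in MI-503 and was lower in the combination than in MI-503 by a log2 of -0.74.

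Of 5 enzymes that supply NADPH, the substrate of the oxidase, 1 was called higher and 2 lower in MI-503, 4 higher and 1 lower in the combination over DMSO, and 4 higher and 1 lower in the combination over MI-503. Their median log2 fold changes were -0.0409, 0.32 and 0.16. ME1, the cytosolic malic enzyme, stood at 9.23 ± 1.58 CPM in DMSO, 6.70 ± 1.19 in MI-503 and 28.4 ± 4.72 in the combination (SD, n = 4, 4 and 3), a rise by a log2 of 1.62 over DMSO and 2.09 over MI-503. IDH1 rose by 0.58 in MI-503 and 0.74 in the combination over DMSO, and PGLS, of the pentose phosphate pathway, fell by 0.19 and 0.46 on the log2 scale.

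**Figure D5:**
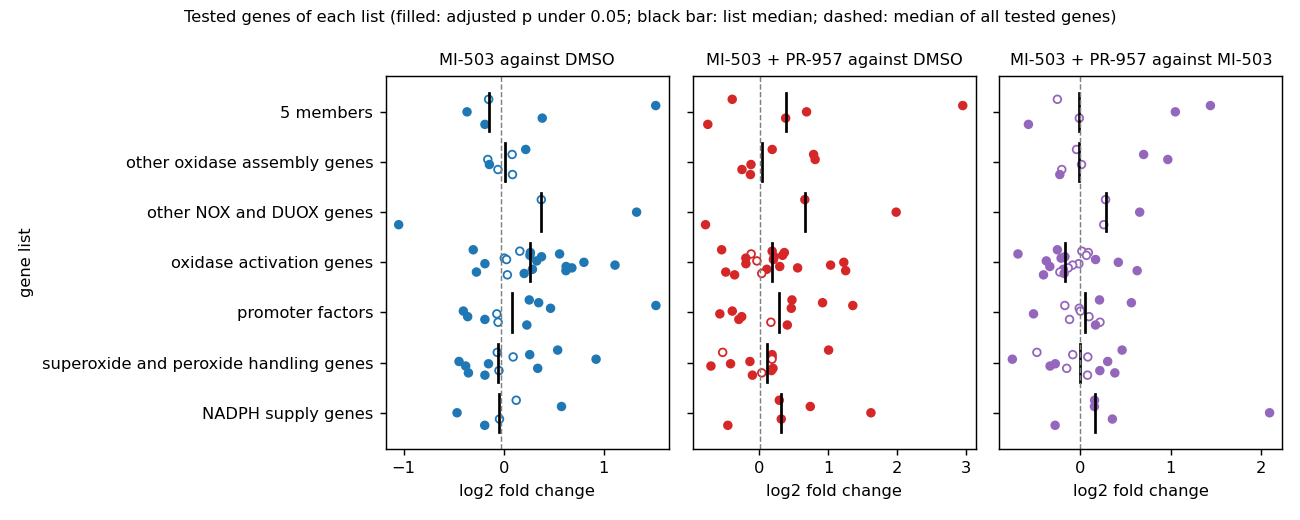
Log2 fold changes of the tested genes of each list in the 3 comparisons, with 1 point per gene, filled where the adjusted p is under 0.05, a black bar at the list median and a dashed line at the median of all tested genes. Each list except the NOX and DUOX genes in the combination against MI-503 holds called genes on both sides of 0.

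For each member, the genes with the most similar profile over the 11 libraries were found among 10041 tested genes that averaged 5 CPM or more, by the root mean square difference of centred log2 CPM. For CYBB these were FGR (0.345), HK3 (0.387) and CORO2A (0.401). NCF1 was nearest to its copy NCF1C (0.160), followed by ZNF771 (0.168) and SLC4A11 (0.169). RAC2 was nearest to TMA7 (0.0379), POLD2 (0.0427) and SRM (0.0474). CYBA was nearest to PHPT1 (0.0611), LAGE3 (0.0615) and GPAA1 (0.0687), and NCF4 to PCED1A (0.0973), GOLGA8A (0.0993) and ZNF225 (0.103). The 5 members were left out of the candidates, so none of them could appear as a neighbour of another. How alike the members are to each other was therefore not examined by this search. The distance grows with the size of a gene's changes and with the scatter of low counts. Distances of different members are therefore not comparable. CYBB, with group means of 0.242 to 2.06 CPM, was itself below the 5 CPM set for candidates.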

How the data were processed

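MOLM-13 RNA libraries (poly(A) selected, TruSeq, NovaSeq read pairs) were analysed in 3 groups from the labels. The deposited data are unnormalized fragment counts for each gene, which the authors made with Trimmomatic 0.39, STAR 2.7.10a and featureCounts 2.0.1 (exons of the RefSeq annotation of hg38, strand ignored, fragments with several mappings or several genes left out, alignments filtered by a rule not given in the sources used here). Such counting removes fragments from genes with near-identical copies. The authors' deposited DESeq2 tables (log2 fold changes, p-values) were not used.

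Counts were analysed in R with edgeR 4.0.16. Of 38557 genes, 14683 passed filterByExpr (minimum count 10, minimum total 15). All 11 libraries were fitted together, with 1 mean for each group and TMM factors (0.956 to 1.056, biological coefficient of variation 6.14%, 8 residual degrees of freedom), tested two-sided by the quasi-likelihood test with Benjamini-Hochberg adjustment over the genes tested and a threshold of 0.05. Precision is limited by 18.89 to 41.15 M fragments and 3 or 4 libraries a group. The labels do not say that libraries came from separate cultures, so p-values measure the spread between these samples, which may be technical. CPM and RPKM were computed from counts and TMM-scaled totals. Ratios were tested by exact permutation over libraries. Alternatives were RLE and upper-quartile scaling, other filters, DESeq2 1.42.0, limma-voom 3.58.1, the replicate number as a block, 2 groups only and leaving out each library. Sums over the NCF1 copies and the NCF4 length on chromosome 22 alone were added after the data had been seen.

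Named genes were the members, 6 other assembly genes (1 further gene of the planned list is not reported here), up to 3 genes of each list with the smallest adjusted p in a comparison, and the 3 genes most like each member. SPI1 and the cell type markers are given beside them and were chosen otherwise. The members and lists were chosen with earlier results of these data known. Scripts were tested on simulated data.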

Additional observations from a re-analysis of the deposited data

Results flagged for a closer look

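Among 37 named genes, the DMSO and MI-503 groups of 4 libraries were searched for a library whose gap to its nearest neighbour took up most of the range of the group (Dixon's test at 95%). Of 74 groups, 4 held such a library, and chance gives about 1 in 20. NCF1C stood at 17.83 CPM in DMSO replicate 3, against 13.76 to 14.29 in the other DMSO libraries. PRDX2 (115.6 CPM, others 108.0 to 108.8) and SOD1 (105.7 CPM, others 96.0 to 97.35) stood apart in MI-503 replicate 3. PRKCB stood at 213.4 CPM in MI-503 replicate 2, against 217.0 to 217.6 in the others. None of the 5 oxidase members was among them.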

How the results depend on the processing

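For the 5 members, no alternative turned the direction of a called change. Of their alternative values, 272 stayed on the same side of the threshold, 7 became calls and 6 lost a call. NCF4 in the combination against MI-503, which was not called, lay on either side of 0 (-0.12 to 0.06 over left-out libraries). CYBA in MI-503 against DMSO became a call with no filter (-0.13), with 2 groups only (-0.10) and without combination replicate 1, and ran from -0.17 to -0.10 over single libraries left out. CYBA in the combination against MI-503 became a call with no filter (-0.24) and with limma-voom (-0.27), and ran from -0.42 to -0.0896 over left-out libraries. NCF1 in MI-503 against DMSO lost its call with the stricter filter (-0.30, adjusted p = 0.0551) and with its copies summed (-0.22), and ran from -0.43 to -0.30 over left-out libraries. RAC2 in MI-503 against DMSO lost its call with the stricter filter (-0.12). The causes were not tested. CYBB was not tested under the stricter filter.

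Same-numbered libraries did not deviate together (correlations from -0.102 to 0.144, 1 of 10 above 0.1, 7 of 20 best matches with the same number), so the numbers were not taken as pairs. With the replicate block 7630, 9312 and 6813 genes were called in the 3 comparisons, against 7542, 9472 and 6956 without it, and no member's call changed. Permuting ratios within the replicate block left too few orders to pass the threshold (adjusted p = 0.321). The log2 differences were then 1.78, 3.18 and 1.66 for CYBB to CYBA, -0.74 and 1.07 for NCF1 to NCF4 (MI-503 against DMSO, combination against MI-503), and -0.58 in both comparisons of the combination for RAC2 to RAC1. With a library left out, no ratio passed the threshold (lowest adjusted p = 0.0514, exact permutation test). CYBB to CYBA then ran from 1.52 to 2.02, 3.18 to 3.75 and 1.41 to 1.98, NCF1 to NCF4 from -0.87 to -0.61, 0.17 to 0.47 and 0.95 to 1.21, and RAC2 to RAC1 from -0.07 to 0.000148, -0.65 to -0.58 and -0.61 to -0.57. CYBB values in DMSO rest on 3 to 8 fragments per library.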
